A study of Homo sapiens with 2 samples.

Results

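The 10 genes described here are 9 tubulin genes (TUBA1A, TUBA1B, TUBA1C, TUBB, TUBB2A, TUBB3, TUBB4B, TUBB6 and TUBG1) and TPPP3, out of 25432 genes measured in both libraries. They were chosen by name with the results of these same libraries known, so their FPKM and ratios are a description and carry no test. A gene's value is the FPKM (fragments per kilobase of transcript, relative to the library's mapped fragments) of its RefSeq transcripts, summed with that of the stranded assembled transcripts which share an intron with it. RNA came from A549, an established human line of lung adenocarcinoma, labelled as non-small cell lung cancer. The shPSPC1 library came from A549 cells carrying an shRNA against PSPC1, an RNA-binding protein of nuclear paraspeckles. The shLacZ library came from A549 cells carrying an shRNA against the bacterial gene LacZ as the control. Both cultures were grown in serum-containing medium and their RNA was extracted with Trizol. The shRNA sequences, the time after delivery, and whether the cells were clones or pools are not given in the sources used here. Each group holds 1 library, so no difference has a replicate check and no p-value is given, and every ± value or interval covers error within a library only.

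Microtubules are hollow polymers of α- and β-tubulin heterodimers, and γ-tubulin, in a ring complex with partner proteins, templates their growth. Humans have several genes for each of α- and β-tubulin, whose products are called isotypes and differ mostly in their acidic carboxy-terminal tails. New tubulin is folded by prefoldin, the CCT chaperonin and the TBC cofactors. Free heterodimers also lower the stability of tubulin mRNAs during translation, through TTC5, which binds the first residues of a nascent tubulin, and the CCR4-NOT deadenylase. TPPP3, a member of the TPPP family of tubulin polymerization-promoting proteins, binds and bundles microtubules.

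The start of the coding sequence, which in α- and β-tubulins encodes the residues read by that autoregulation, is shown first and compared base by base. The starts of TUBG1 and TPPP3 are given beside them for comparison. The following lines give the first 30 coding bases of each member, 5′ to 3′, with the first 4 codons in capitals, read from GENCODE 29 transcripts on GRCh38 that pair with the RefSeq entries of the files.
TUBA1A: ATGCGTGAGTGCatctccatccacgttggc
TUBA1B: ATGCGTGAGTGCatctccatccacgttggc
TUBA1C: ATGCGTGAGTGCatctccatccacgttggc
TUBB: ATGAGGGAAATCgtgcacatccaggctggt
TUBB2A: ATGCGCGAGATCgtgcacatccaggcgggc
TUBB3: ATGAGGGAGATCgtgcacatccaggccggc
TUBB4B: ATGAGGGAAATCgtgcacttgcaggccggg
TUBB6: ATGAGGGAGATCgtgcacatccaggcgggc
TUBG1: ATGCCGAGGGAAatcatcaccctacagttg
TPPP3: ATGGCAGCGAGCacagacatggctgggctg
The 3 α-tubulin starts are identical over all 30 bases. In the bases of the first 4 codons TUBB and TUBB4B are identical, as are TUBB3 and TUBB6, while TUBB2A, TUBG1 and TPPP3 each have their own. Among the β-tubulins these differences are synonymous, so all β-tubulin members encode the same first 4 residues.

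The ends of the β-tubulin coding sequences are shown because the isotypes are told apart there. The following lines give the last 60 coding bases of each, 5′ to 3′, with the stop codon in capitals, from the same transcripts.
TUBB: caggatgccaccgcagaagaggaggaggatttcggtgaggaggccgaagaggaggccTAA
TUBB2A: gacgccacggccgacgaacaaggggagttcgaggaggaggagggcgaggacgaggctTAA
TUBB3: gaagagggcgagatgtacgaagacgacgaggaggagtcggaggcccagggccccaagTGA
TUBB4B: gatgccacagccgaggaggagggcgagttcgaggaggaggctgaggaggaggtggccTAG
TUBB6: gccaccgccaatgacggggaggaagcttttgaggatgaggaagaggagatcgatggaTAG
Each β-tubulin has its own end. Over the whole coding sequence TUBA1A and TUBA1B are 97.2% identical, TUBA1A and TUBA1C 95.9%, and TUBA1B and TUBA1C 96.8%. Pairs of β-tubulins range from 80.9% for TUBB with TUBB6 to 87.7% for TUBB2A with TUBB3.

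Such likeness limits how short reads can be assigned. Of all stretches of 50 bases in the GENCODE transcript of TUBA1B, 62.7% also occur in a transcript of another gene, and the share is 41.1% for TUBA1A and 25.1% for TUBA1C. The GENCODE transcript of TUBA1C has 3001 bases, but the one measured in the files has 1553. The share over that shorter transcript was not computed and may be higher, so TUBA1C is not ranked against TUBA1A here. TUBB2A shares 65.5% of its stretches of 50 bases, mostly with TUBB2B, and TUBG1 shares 29.9%, mostly with TUBG2. The share is 18.2% for TUBB, 9.89% for TUBB4B, 8.90% for TUBB3, 0.993% for TUBB6 and 0% for TPPP3. With no stated read length 50 bases is a choice, and with 100 bases the shares are 37.2% for TUBA1B, 18.3% for TUBA1A, 56.4% for TUBB2A and 5.15% for TUBB3. The levels of TUBA1A, TUBA1B, TUBA1C, TUBB2A and TUBG1 are therefore less certain than their intervals show. TPPP3 and TUBB6 are the members that share least.

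From the deposited intervals, depth came to about 57100000 fragments in the shPSPC1 library and 56200000 in the shLacZ library. PSPC1 itself stood at 17.7 ± 0.858 FPKM in the shPSPC1 library and 31.5 ± 1.25 FPKM in the shLacZ library, which is 55.6% of the shLacZ level by estimated fragments. All 7 markers of epithelial and A549 cells were at 1 FPKM or more, with KRT18 at 1184 and 1450 FPKM and KRT7 at 964 and 1196 FPKM in the shPSPC1 and shLacZ libraries. EPCAM was low, at 2.85 and 3.87 FPKM. Of 7 measured markers of ciliated cells, which use many tubulins, 4 (FOXJ1, TEKT1, TEKT2 and DNAI1) were listed at 0 in both files. The others were detected at low levels in the shPSPC1 and shLacZ libraries: DNAH5 at 1.70 and 0.948 FPKM, RSPH1 at 0.609 and 0.744 FPKM, and CFAP53 at 0.338 and 0.853 FPKM. The 7 summed to 2.64 FPKM in the shPSPC1 library and 2.55 FPKM in the shLacZ library. The 5 neuron markers, listed because TUBB3 is used as a neuronal marker, summed to 6.06 and 5.71 FPKM, of which SNAP25 gave 4.05 and 4.61 FPKM. Leukocyte markers summed to 0.126 and 0.410 FPKM, and fibroblast and endothelial markers to 0.559 and 0.714 FPKM.

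Among the 10 genes TPPP3 had the lowest ratio of shPSPC1 to shLacZ, TUBA1A and TUBB3 came next, and the abundant β-tubulin TUBB4B and the γ-tubulin TUBG1 had nearly equal levels in the 2 libraries. All 10 members were at 1 FPKM or more in both libraries. The log2 ratios below are log2((shPSPC1 + 1)/(shLacZ + 1)) in FPKM, which understates the change of low genes. A difference was called past the rule of size where the higher library had at least 1 FPKM, the log2 ratio was at least 1 in either direction, and the 95% intervals did not overlap. By that rule 1 of 10 members, TPPP3, was lower and 0 were higher, while 0.893% of all 25432 genes were lower and 0.759% higher. By estimated fragments the counts of members were the same, 1 lower and 0 higher, beside 0.849% and 0.802% of all genes. Intervals that did not overlap, with the shPSPC1 level lower, were seen for 8 of 10 members and for 25% of the 10839 genes at 1 FPKM or more in both libraries (29.2% of the 4827 genes at 10 FPKM or more). The reverse was seen for 0 of 10 members and for 25.4% of those 10839 genes (29.6% of the 4827). Since the members were chosen with these values known, nothing is read from these shares.

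**Figure D1:**
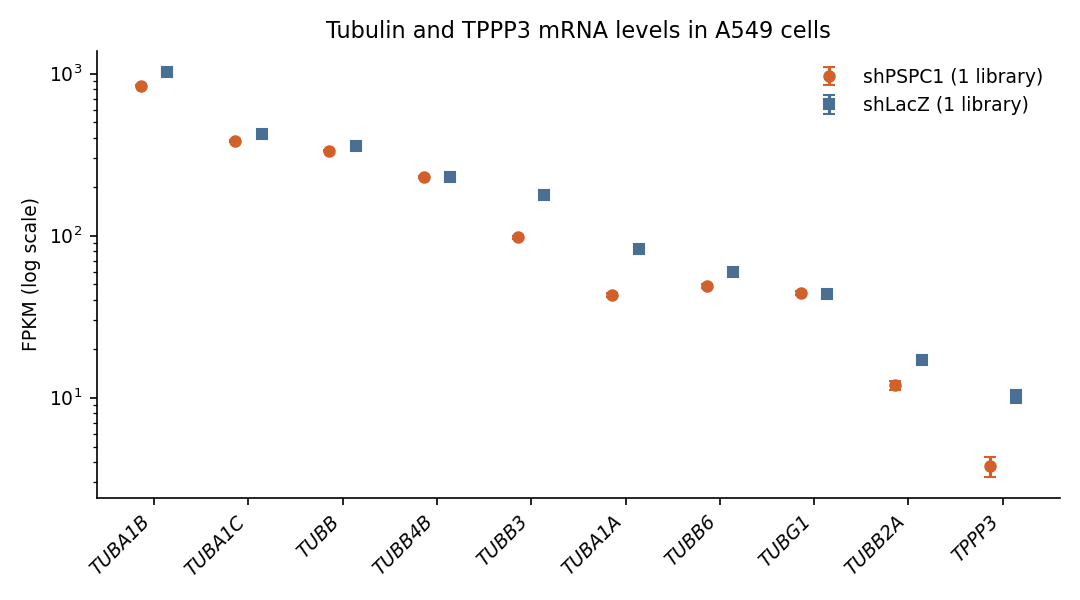
FPKM of the 10 genes on a log scale, shPSPC1 library as circles and shLacZ library as squares, with 95% intervals from the deposited bounds (most are smaller than the points). The levels span from 3.78 FPKM for TPPP3 in the shPSPC1 library to 1028 FPKM for TUBA1B in the shLacZ library, and the circle lies clearly below the square for TPPP3, TUBA1A and TUBB3.

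TPPP3 (chromosome 16, positions 67423712 to 67427421, minus strand, in the files' coordinates) fell to 3.78 ± 0.549 FPKM in the shPSPC1 library, against 10.2 ± 0.909 FPKM in the shLacZ library. These levels stand for 189 fragments in the shPSPC1 library and 505 in the shLacZ library. The shPSPC1 count is 37.0% of the shLacZ count at equal depth, with a 95% counting interval of 31.3% to 43.7%. The log2 ratio was -1.23, with bounds of -1.52 and -0.95 from the intervals, and the 2 intervals did not overlap. By estimated fragments, 57 of the 10839 expressed genes (0.526%) had a log2 ratio at or below that of TPPP3. In a bulk sample, fewer cells of a type and less RNA per cell cannot be told apart, for TPPP3 and for every gene below. The whole TPPP3 signal lay in 1 annotated transcript of 4 exons in each file, and the annotated transcript with an extra exon was listed at 0 in both. Its paralogues were low: TPPP stood at 0.768 FPKM in the shPSPC1 library and 0.943 FPKM in the shLacZ library, and TPPP2 was listed at 0 in both.

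Among the α-tubulins, TUBA1A differed most between the libraries and the more abundant TUBA1B and TUBA1C differed less. The 3 genes lie in 1 cluster on chromosome 12, TUBA1B and TUBA1A on the minus strand and TUBA1C on the plus strand. TUBA1A (positions 49578578 to 49583107), an isotype best known from developing neurons, was at 43.1 ± 1.31 FPKM in the shPSPC1 library and 82.9 ± 1.84 FPKM in the shLacZ library. Its log2 ratio of -0.93 has bounds of -1.003 and -0.85, and the gene stood just outside the rule of size. The estimated fragments were 4312 in the shPSPC1 library and 8177 in the shLacZ library, or 52.0% of the shLacZ count at equal depth (50.1% to 53.9%). Of the 10839 expressed genes, 1.19% had a ratio this low or lower by estimated fragments.

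TUBA1B (positions 49521565 to 49525304), a widely expressed α-tubulin, had the highest level of all members. It was at 844 ± 6.10 FPKM in the shPSPC1 library and 1028 ± 8.58 FPKM in the shLacZ library, a log2 ratio of -0.28. By estimated fragments, 76534 in the shPSPC1 library and 84403 in the shLacZ library, the log2 ratio was -0.16. That ratio depends on an assembled transcript of the shLacZ file described below, and with annotated transcripts alone it was 0.78. TUBA1C (positions 49658865 to 49667113), also widely expressed, was at 383 ± 4.397 FPKM in the shPSPC1 library and 425 ± 4.66 FPKM in the shLacZ library, and its log2 ratio was -0.15. For TUBA1B and TUBA1C the intervals of the summed levels did not overlap between the libraries. Yet by estimated fragments 22.7% and 24.0% of expressed genes had ratios as low or lower.

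Among the β-tubulin members, TUBB3 was lowest relative to shLacZ, TUBB2A and TUBB6 came next, and TUBB and TUBB4B were nearest to equal by summed FPKM and by estimated fragments. TUBB3 (chromosome 16, plus strand, expressed transcript at 89989687 to 90002505), the isotype known from neurons and from tumours, was at 97.8 ± 2.07 FPKM in the shPSPC1 library and 178 ± 2.81 FPKM in the shLacZ library. The log2 ratio was -0.86 (bounds -0.91 and -0.81) and the intervals were far apart. Its estimated fragments were 8961 in the shPSPC1 library and 16086 in the shLacZ library, which is 54.9% of the shLacZ count at equal depth (53.5% to 56.4%). Ratios as low or lower by estimated fragments were found for 1.42% of expressed genes. The annotated TUBB3 transcript with the upstream first exon was listed at 0 in both files.

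TUBB2A (chromosome 6, 3153900 to 3157783, minus strand), a β-tubulin abundant in brain, had a much lower level. It was at 11.9 ± 0.757 FPKM in the shPSPC1 library and 17.1 ± 0.912 FPKM in the shLacZ library, a log2 ratio of -0.48 (bounds -0.64 and -0.33). The intervals did not overlap, and the fragment numbers were 991 in the shPSPC1 library and 1399 in the shLacZ library. TUBB6 (chromosome 18, 12308257 to 12326568, plus strand), a β-tubulin of many non-neuronal tissues, was at 49.2 ± 1.45 FPKM in the shPSPC1 library and 59.7 ± 1.602 FPKM in the shLacZ library. Its log2 ratio of -0.27 (bounds -0.35 and -0.19) was low but not rare, since 13.8% of expressed genes had one as low or lower by estimated fragments. TUBB6 shares almost no stretch with another gene, and its intervals did not overlap.

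TUBB (chromosome 6, 30688157 to 30693199, plus strand) was the most abundant β-tubulin gene. It was at 335 ± 3.77 FPKM in the shPSPC1 library and 359.8 ± 3.32 FPKM in the shLacZ library, a log2 ratio of -0.10 by summed FPKM and -0.06 by estimated fragments. With annotated transcripts alone it was -0.81, since that leaves out an assembled transcript of the shPSPC1 file described below. The intervals of the summed FPKM did not overlap, but 36.7% of expressed genes had a ratio by estimated fragments as low or lower. TUBB4B (chromosome 9, 140135711 to 140138159, plus strand), a widely expressed β-tubulin also used in cilia, was at 231 ± 3.37 FPKM in the shPSPC1 library and 230.6 ± 3.39 FPKM in the shLacZ library. Its log2 ratio was 0.00, with bounds of -0.04 and 0.04, and its intervals overlapped almost fully. TUBG1 (chromosome 17, 40761358 to 40767256, plus strand), the main γ-tubulin gene, was at 44.3 ± 1.32 FPKM in the shPSPC1 library and 43.4 ± 1.31 FPKM in the shLacZ library. The log2 ratio was 0.03 (bounds -0.06 and 0.11) and its intervals overlapped too.

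**Figure D2:**
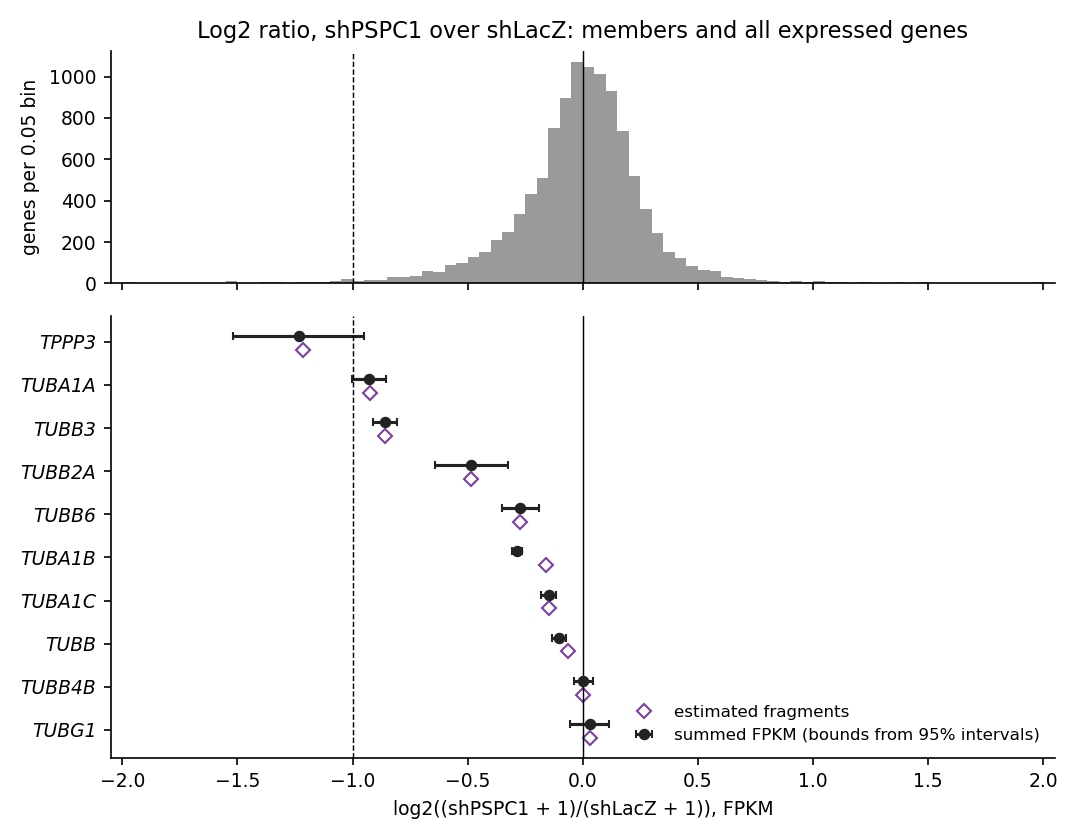
Lower panel: log2 ratio, shPSPC1 over shLacZ with 1 FPKM added, of each member by summed FPKM (filled circles, bars from the 95% intervals) and by estimated fragments (open diamonds). Upper panel: the same ratio by estimated fragments for the 10839 genes at 1 FPKM or more in both libraries, values beyond the axis placed in the end bins. The dashed line marks -1, and TPPP3 lies left of it by both measures, TUBA1A and TUBB3 just right of it.

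The median log2 ratio of the 10 members was -0.28 by summed FPKM and -0.22 by estimated fragments, against 0.01 over the 10839 expressed genes by either measure. By estimated fragments 4 of 10 members (TPPP3, TUBA1A, TUBB3 and TUBB2A) had a log2 ratio of -0.4 or less, as did 7.73% of expressed genes. Ratios of 0.4 or more were found for 0 of 10 members and 4.95% of expressed genes. Directions close to 0 depend on the scale: with both libraries rescaled to the same FPKM total without mitochondrially encoded genes, ratios shift up by 0.10 (by less for genes of low FPKM), which puts TUBB at 0.00, TUBB4B at 0.11 and TUBG1 at 0.13. The ratios of TPPP3, TUBA1A, TUBB3, TUBB2A, TUBB6 and TUBA1C stayed below 0 under each of the 11 alternatives tried. Most of these alternatives could not have turned them. Each of these genes had 1 transcript above 0 in each file, so the choice of transcripts hardly moved its ratio. A pseudocount or an FPKM minimum cannot turn a sign. Rescaling could, and without mitochondrially encoded genes it put TUBA1C at -0.05. Markers of epithelial cells that stay high in this line were also lower by estimated fragments, with log2 ratios of -0.31 for KRT7, -0.40 for KRT8 and -0.29 for KRT18, and AKR1B10 was higher at 2131 FPKM in the shPSPC1 library and 1072 FPKM in the shLacZ library. The part of these in the tubulin values was not tested.

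The isotype make-up of tubulin mRNA followed from these levels. Summed over 9 α-tubulin genes, α-tubulin mRNA was 1339 FPKM in the shPSPC1 library and 1636 FPKM in the shLacZ library, or 81.9% of the shLacZ level (86.8% by estimated fragments). Of the shLacZ total, 537.7 FPKM lay in an assembled TUBA1B transcript listed in that file only and described below. Without it the shLacZ total would lie below the shPSPC1 total, so the direction depends on it. Summed over 9 β-tubulin genes, β-tubulin mRNA was 729 FPKM in the shPSPC1 library and 852 FPKM in the shLacZ library, or 85.6% (86.9% by estimated fragments). The ratio of α to β by estimated fragments was 1.81 in each library, and by summed FPKM it was 1.84 in the shPSPC1 library and 1.92 in the shLacZ library. These ratios include the assembled TUBA1B and TUBB transcripts. TUBB3 made up 13.4% of β-tubulin FPKM in the shPSPC1 library and 20.9% in the shLacZ library, a difference of -7.47 percentage points by summed FPKM and by estimated fragments, and of -4.54 points with annotated transcripts alone. The share of TUBB was 45.9% in the shPSPC1 library and 42.2% in the shLacZ library, and that of TUBB4B 31.7% and 27.0%. With annotated transcripts alone the direction for TUBB turned, to 34.1% in the shPSPC1 library and 42.2% in the shLacZ library. TUBA1A made up 3.22% of α-tubulin FPKM in the shPSPC1 library and 5.07% in the shLacZ library. TUBA1B made up 63.0% and 62.8% by summed FPKM, and 63.5% and 61.6% by estimated fragments. The α shares include the assembled TUBA1B transcript of the shLacZ file. Annotated TUBA1B alone was at 844 FPKM in the shPSPC1 library and 490.2 FPKM in the shLacZ library. The α shares with annotated transcripts alone were not computed, so the near equality of the TUBA1B shares rests on that assembled transcript.

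**Figure D3:**
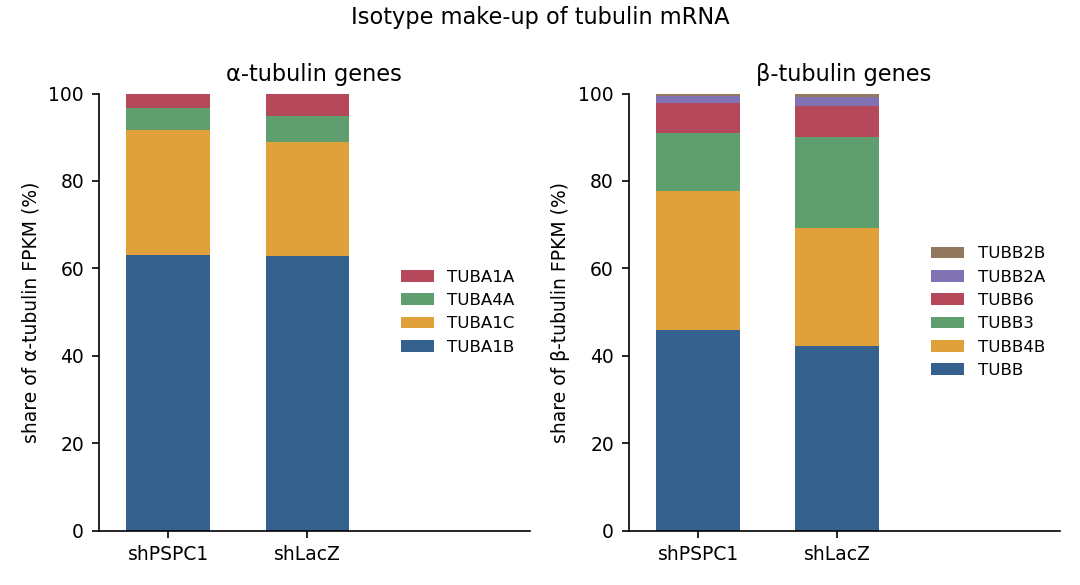
Share of each gene in the summed FPKM of its family, α-tubulins left and β-tubulins right, with the shPSPC1 library on the left of each pair and the shLacZ library on the right. Genes under 0.4% in both libraries are left out, and the TUBB3 segment is 13.4% in the shPSPC1 library and 20.9% in the shLacZ library.

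Of 10 members, 8 had the whole of their signal in 1 transcript of each file. The exceptions were TUBA1B and TUBB, each with an assembled transcript in 1 file only. In the shPSPC1 file TUBA1B had its annotated transcript alone, at 844 FPKM. In the shLacZ file the annotated transcript was at 490.2 FPKM and an assembled one at 537.7 FPKM (531 to 544), which is a share of 0.523. The assembled transcript has 1503 bases, against 1753 in the annotated one, shares 2 of 3 introns with it and starts 1324 bases further downstream, inside the annotated first intron. For TUBB, the assembled transcript was in the shPSPC1 file, at 130.8 FPKM (128 to 133) and a share of 0.390, beside the annotated one at 204.2 FPKM. In the shLacZ file the annotated TUBB transcript held all 359.8 FPKM. The assembled TUBB transcript has all 3 introns of the annotated one, begins 205 bases upstream and ends 40 bases earlier. A rule of size for shares asked for a gene that reaches 5 FPKM in each library, a share that differs by at least 0.3, and intervals that do not overlap, with transcripts of the same introns counted as 1. By it TUBA1B passed, 1 of the 9 members that reach 5 FPKM, while 23.3% of 7126 genes at that level passed. TUBB did not pass, since its transcripts have the same introns and differ only at their outer ends. In both genes, the assembled transcript without an entry in the other file was not listed there rather than measured at 0.

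**Figure D4:**
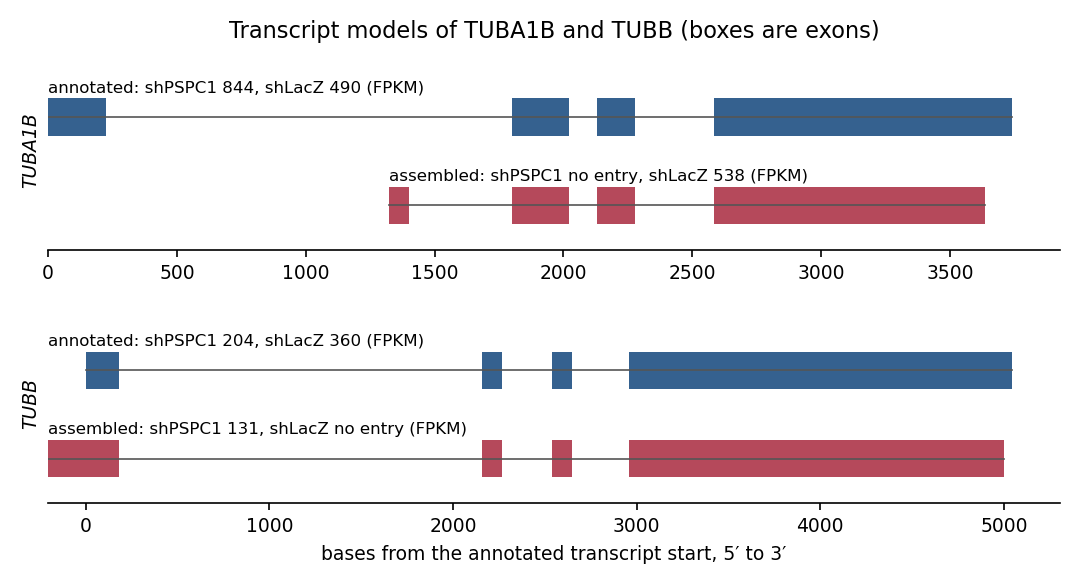
Exons (boxes) and introns (lines) of the annotated and assembled transcripts of TUBA1B (upper) and TUBB (lower), in bases from the annotated start, with the FPKM of each in the shPSPC1 and shLacZ files. The assembled TUBA1B model begins 1324 bases inside the annotated one, and the assembled TUBB model begins 205 bases before it.

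The promoters of TUBA1A and TUBB3 are shown because these were the tubulin members with the lowest ratios. The following lines give 250 bases before to 50 after the annotated start, 5′ to 3′ on the gene's strand, from RefSeq on GRCh38.p14, TUBA1A at chr12:49189031-49189330 (minus) and the start of the expressed TUBB3 transcript at chr16:89923092-89923391 (plus). These coordinates belong to GRCh38.p14 and not to the files. Capitals mark matches on either strand to CCAAT, the core of the NF-Y site, to GGGCGG, the GC box, and to TGANTCA, the AP-1 site.
TUBA1A: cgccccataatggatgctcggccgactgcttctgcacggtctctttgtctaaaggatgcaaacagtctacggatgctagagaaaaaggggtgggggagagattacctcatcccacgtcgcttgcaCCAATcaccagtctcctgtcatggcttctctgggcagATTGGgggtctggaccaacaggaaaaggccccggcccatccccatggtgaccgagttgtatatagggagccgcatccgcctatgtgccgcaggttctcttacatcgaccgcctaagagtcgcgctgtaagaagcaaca
TUBB3: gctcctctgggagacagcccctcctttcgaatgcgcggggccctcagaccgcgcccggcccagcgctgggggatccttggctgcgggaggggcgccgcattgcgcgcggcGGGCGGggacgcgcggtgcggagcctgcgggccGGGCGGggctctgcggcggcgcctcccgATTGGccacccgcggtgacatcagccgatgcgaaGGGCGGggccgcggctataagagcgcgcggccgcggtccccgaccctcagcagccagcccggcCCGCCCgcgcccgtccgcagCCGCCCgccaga
TUBA1A has 2 CCAAT matches, and TUBB3 has 1 CCAAT match and 5 GGGCGG matches. Neither window has a TGANTCA match, so no capitals there mark that site. CCAAT is found in 34.6% and GGGCGG in 44.95% of 35116 RefSeq promoters of this length, and TGANTCA in 7.71%. TATAAA, the TATA box core, was also searched on both strands and is in 11.5% of promoters and in neither of these windows. In all, 9 members matched the promoter table. Among the members with nearly equal levels, TUBB4B has 3 CCAAT matches, and TUBG1 has 1 CCAAT match and 2 GGGCGG matches. A second RefSeq start of TUBB3, further upstream, has 1 TGANTCA match in its window. A link between these motifs and the ratios was not tested.

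Expressed genes on either side of the members on the chromosome gave no call. These are 16 distinct genes, picked after the values were seen, all at 1 FPKM or more in both libraries. Other members were passed over, and the gap reached 277372 bases for IMPA2 beside TUBB6. Of the 16, 0 passed the rule of size, beside 0.893% lower and 0.759% higher of all genes. Their log2 ratios by estimated fragments ran from -0.76 for TUBB2B to 0.57 for TUBG2. Beside TUBB3, MC1R was at 2.82 FPKM in the shPSPC1 library and 2.74 FPKM in the shLacZ library, and DEF8 at 19.0 and 20.4 FPKM. Beside TPPP3, ZDHHC1 was at 2.99 FPKM in the shPSPC1 library and 3.28 FPKM in the shLacZ library. On the sides of the α-tubulin cluster, LMBR1L was at 4.55 and 2.21 FPKM and TROAP at 16.4 and 13.9 FPKM, higher where TUBA1A was lower.

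The other tubulin genes were mostly weakly expressed. Of 13 measured, 5 were at 1 FPKM or more in both libraries, and 0 passed the rule of size in either direction. Over all 25432 genes, 0.893% were past it as lower and 0.759% as higher. TUBA4A, an α-tubulin outside the cluster, was at 69.0 FPKM in the shPSPC1 library and 99.3 FPKM in the shLacZ library, a log2 ratio of -0.52. TUBB2B, the near copy of TUBB2A, was at 3.46 and 6.53 FPKM, a log2 ratio of -0.76. TUBG2, the near copy of TUBG1, was at 3.35 FPKM in the shPSPC1 library and 1.92 FPKM in the shLacZ library, a log2 ratio of 0.57. TUBD1 and TUBE1, the δ- and ε-tubulins of centrioles, were at 6.91 and 7.14 FPKM and at 3.15 and 2.86 FPKM.

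The rest of the microtubule system was compared through 8 further lists, 7 of which had no gene past the rule of size. Together with the other tubulin and TPPP genes these lists hold 153 measured genes, of which 118 were at 1 FPKM or more in both libraries. Of the 153, 1 was past the rule as higher and 0 as lower, beside 0.759% and 0.893% of all 25432 genes. At those shares lists of this size hold few calls or none, so 0 calls in a list is not read as no change. The median log2 ratio of the 118 by estimated fragments was 0.03, against 0.01 over all expressed genes. Of the 118, 5 were at -0.4 or less and 4 at 0.4 or more, beside 7.73% and 4.95% of expressed genes.

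Genes that fold tubulin gave 0 calls. In the list of prefoldin and CCT chaperonin, 15 of 15 genes were expressed, 0 passed the rule, and the median log2 ratio by estimated fragments was 0.06. CCT5 was at 302 FPKM in the shPSPC1 library and 263 FPKM in the shLacZ library, and CCT3 at 287 and 256 FPKM. Of the CCT5 FPKM, 0.706 in the shPSPC1 file and 0.759 in the shLacZ file lay in transcripts listed in that file only. By estimated fragments the log2 ratios were 0.02 for CCT5 and 0.09 for CCT3. Of 7 folding cofactors 0 passed, with a median log2 ratio of 0.09 by summed FPKM and -0.0014 by estimated fragments. TBCA, which holds free β-tubulin, was at 177 FPKM in the shPSPC1 library and 117 FPKM in the shLacZ library, a log2 ratio of 0.60 by summed FPKM and 0.11 by estimated fragments. TBCB, which acts with TBCE in splitting the heterodimer, was at 157 FPKM in the shPSPC1 library and 85.9 FPKM in the shLacZ library, but 0.688 of its shPSPC1 FPKM lay in an assembled transcript of 394 bases present in that file only, and its log2 ratio by estimated fragments was -0.34. ARL2, a GTPase that works with the cofactors, was at 61.4 and 74.3 FPKM (log2 ratio -0.27). Of 6 genes for tubulin mRNA autoregulation 0 passed. TTC5, the reader of nascent tubulin, was at 9.19 FPKM in the shPSPC1 library and 8.49 FPKM in the shLacZ library, and the CCR4-NOT subunits CNOT7 and CNOT8 at 40.4 and 38.0 FPKM and at 20.02 and 15.7 FPKM.

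Partners of γ-tubulin and the enzymes that modify tubulin had 1 gene past the rule. Of 13 genes of the γ-tubulin ring complex, NME7 passed as higher, at 2.09 FPKM in the shPSPC1 library and listed at 0 in the shLacZ library. That value comes from a single assembled transcript of 28501 bases in 1 file, so no fold is given. TUBGCP5, a ring subunit, was at 19.4 FPKM in the shPSPC1 library and 15.5 FPKM in the shLacZ library, and MZT2B, a small ring protein, at 64.7 and 64.8 FPKM. Of 19 modifying enzymes 0 passed. TTL, which restores the terminal tyrosine of α-tubulin, was at 9.89 FPKM in the shPSPC1 library and 12.4 FPKM in the shLacZ library, and SVBP, the partner of the enzymes that remove it, at 8.54 and 6.91 FPKM.

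Proteins that bind, sever or walk on microtubules gave 0 calls. Of 30 microtubule-associated and plus-end genes 0 passed, with a median log2 ratio of 0.05 by estimated fragments. MAPRE1, the plus-end protein EB1, was at 83.1 FPKM in the shPSPC1 library and 61.7 FPKM in the shLacZ library. Its log2 ratio was 0.42 by summed FPKM and 0.29 by estimated fragments. MAP1B, a neuronal microtubule-associated protein, was at 15.8 FPKM in the shPSPC1 library and 22.4 FPKM in the shLacZ library (log2 ratio -0.48). Of 14 destabilizers and severing enzymes 0 passed. STMN1, stathmin, which binds free tubulin, was at 209 FPKM in the shPSPC1 library and 349 FPKM in the shLacZ library, but 0.757 of the shLacZ FPKM lay in an assembled transcript of 405 bases in that file only, and the log2 ratio by estimated fragments was -0.09. Of 34 kinesin, dynein and adaptor genes 0 passed. DYNLT3, a dynein light chain, was at 7.10 FPKM in the shPSPC1 library and 13.2 FPKM in the shLacZ library (log2 ratio -0.81), and DYNLL1, another light chain, was at 158 and 155 FPKM.

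**Figure D5:**
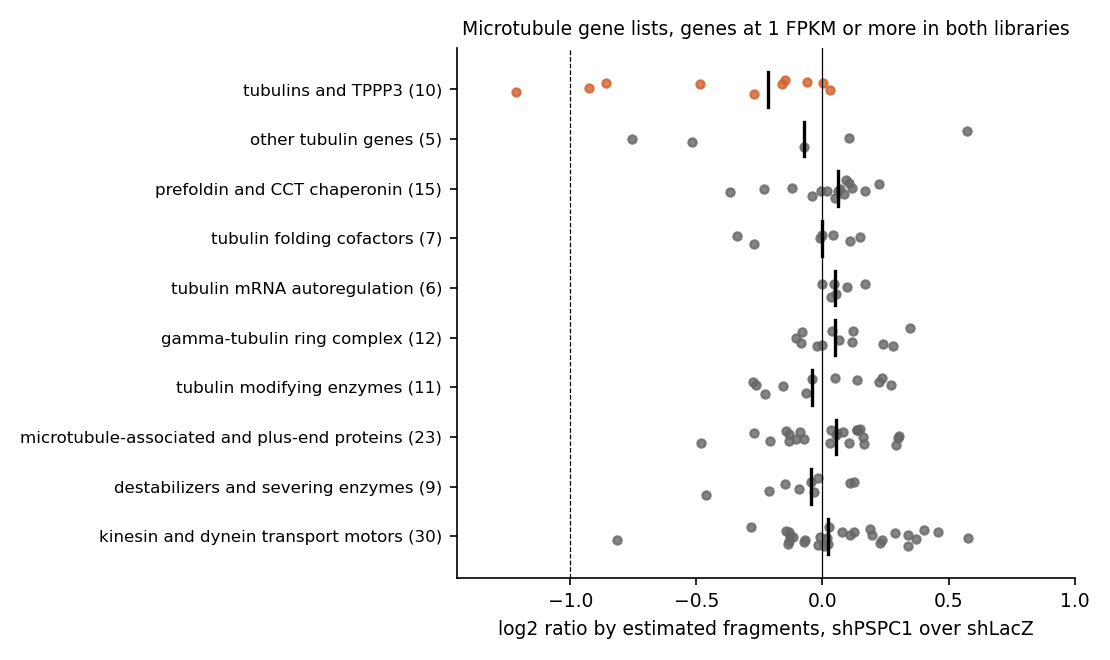
Log2 ratio by estimated fragments, shPSPC1 over shLacZ, of the genes at 1 FPKM or more in both libraries, one point per gene (points are spread vertically for legibility), the 10 members in orange and the other lists in grey, with the number of genes in brackets. Black bars are medians, at -0.22 for the members and from -0.07 to 0.06 for the other lists, and TPPP3 is the one point left of the dashed line at -1.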

How the data were processed

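RNA sequencing gave 1 transcript file for each of the 2 libraries. The authors used CASAVA 1.8.2, TopHat2 2.0.7 and Cufflinks 2.1.1, per the submitters' processing notes. The FPKM, the 95% interval bounds and the coverage of each transcript are the authors' other deposited values, per the attribute names in the files, and were used as deposited. Their genome build, read length and strand setting are not given in the sources used here. Coordinates are the files' own unless GRCh38 is named. 983 RefSeq entries in the shPSPC1 file and 961 in the shLacZ file matched no gene and were left out.

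Transcripts were joined to genes by RefSeq accession, and stranded assembled transcripts by shared introns, in Python 3.11.15 with pandas 2.3.3 and numpy 2.4.6. Half-widths were joined as the root of summed squares. Fragments are FPKM times effective length and depth. Depth and mean fragment length (166 bases in shPSPC1, 162 bases in shLacZ) were fitted to the intervals of transcripts alone at their locus, whose implied fragment numbers were whole within 0.02 for 94.5% of 35288 in shPSPC1 and 94.2% of 29032 in shLacZ. 1 FPKM over 2000 bases stands for about 105 fragments in shPSPC1 and 103 in shLacZ. Counting intervals are 95% intervals of the ratio of fragment numbers. For shared stretches, transcripts of other genes lying over the member's own were left out. The code was tested on simulated data with known depth and known changes. Each simulated gene had 1 transcript, so the joining of assembled transcripts and the sharing of reads between genes were not covered. The members and lists were chosen with earlier results of these data known. Named genes are all members, and from each list those past the rule of size, the 2 with the highest mean FPKM and the 2 with the largest ratio by fragments at 5 FPKM or more, of which some are described. Neighbours and genes beyond this rule were chosen after their values were seen. The 11 alternatives changed the pseudocount, the FPKM minimum, the transcripts summed, the measure or the scale. The ends of the α-tubulin coding sequences are not reported here.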

Additional observations from a re-analysis of the deposited data

Results flagged for a closer look

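Inside the span of TUBA1A, the shPSPC1 file lists an assembled single-exon piece of 824 bases with no strand, which enters no gene value. It is at 0.265 FPKM (0.0976 to 0.433), and the shLacZ file has no such piece there. A count of 3 fragments would allow 0.0796 FPKM over that length, so the piece lies above that limit in the shPSPC1 file. Its level is a small part of the 43.1 FPKM of TUBA1A in that library.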

How the results depend on the processing

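TPPP3 was past the rule of size as lower under 10 of 11 alternatives, with log2 ratios from -1.41 to -0.79, and the count of members called lower was 0 in place of 1 with a pseudocount of 5. The signal of TPPP3 lay in 1 transcript per file, so the choices of which transcripts to sum left its value unchanged. Of the other lists, which had 1 gene called higher and 0 lower, the number called lower was 1 with a pseudocount of 0.1, 7 with RefSeq transcripts alone, 1 with the most abundant transcript and 3 with intron chains in both files, and the number called higher was 0 with a pseudocount of 5 or a minimum of 5 FPKM, 6 with RefSeq transcripts alone and 2 with intron chains in both files. Over all genes, with 227 called lower and 193 higher, a pseudocount of 5 gave 88 and 73, a minimum of 5 FPKM 149 and 114, RefSeq transcripts alone 521 and 520, and intron chains in both files 381 and 404, while the most abundant transcript gave 352 higher. Members higher with intervals apart numbered 1 with RefSeq transcripts alone, the most abundant transcript or intron chains in both files (TUBA1B, 0.78), and 2 without mitochondrial genes, in place of 0; those lower numbered 7 or 8 throughout. TUBB ran from -0.81 with RefSeq transcripts alone to 0.00. The TUBB3 share of β-tubulin differed by -4.54 points with RefSeq transcripts alone, which leaves out the assembled TUBB transcript. The member counts with intervals apart and the share were added after seeing the data. No paired analysis was possible because each group holds 1 library, and no library could be left out. Depth limits TPPP3 most, with 189 fragments in the shPSPC1 library.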

Other observations

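Single-exon pieces with no strand also lay inside 2 β-tubulin genes in the shLacZ file only. The one inside TUBB has 304 bases and 6.70 FPKM (4.87 to 8.52), and the one inside TUBB3 has 217 bases and 2.94 FPKM (1.08 to 4.80). The shPSPC1 file lists no piece there, and these pieces enter no value above. The fragment numbers implied by the deposited intervals are whole within 0.02 in both libraries for TPPP3 (189 in shPSPC1 and 505 in shLacZ) and TUBB6 (4641 in shPSPC1 and 5545 in shLacZ), the members that share least sequence with other genes. They are not whole in either library for TUBA1C, TUBB2A, TUBB4B and TUBG1, which share more. For TUBA1A (4312) and TUBB3 (8960) they are whole in the shPSPC1 library only, although TUBA1A shares 41.1% of its stretches of 50 bases.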
